A study of Mus musculus with 4 samples.

Results

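The proteasome is the protease that degrades ubiquitin-tagged proteins. Its 20S core is a stack of alpha and beta rings whose beta subunits hold the cutting sites. The 19S cap, made of a ring of ATPases and a set of non-ATPase subunits, binds ubiquitin chains, removes them and threads the substrate into the core. In the testis, where histones are removed and much cytoplasm is shed as spermatids mature, proteasomes with other activators and a germ cell alpha subunit are known besides the general form. The genes described here are those for subunits of the core, the cap, the activators and the assembly chaperones of this complex, chosen by symbol (Psma, Psmb, Psmc, Psmd, Psme, Psmf or Psmg followed by a number). A gene was included where a probe set was annotated to it alone, which gave 44 genes of the 8251 genes so named, read by 56 probe sets. Each gene was represented by the probe set with the highest mean signal.

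The arrays were 2 of testis from Tslc1-/- males and 2 of testis from Tslc1+/+ males, all C57BL/6J and 16 weeks old. Tslc1, named Cadm1 in current annotation, encodes an adhesion molecule of the immunoglobulin superfamily. The deleted part of the gene and the way the allele was made are not given in the labels, and neither is the origin of the replicates, which may be separate animals or repeats of 1 sample, so each p-value reflects array-to-array spread that could be technical. RNA was of the whole organ, so fewer cells of a type and less RNA per cell cannot be told apart. Values are signals of Affymetrix Microarray Suite 5.0 (MAS5), scaled to a common brightness in arbitrary units. A change is the mean log2(signal + 50) in Tslc1-/- minus that in Tslc1+/+, a scale that understates the change of dim genes.

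Median signals were 377.7 and 365.15 on the Tslc1-/- arrays and 361.5 and 378 on the Tslc1+/+ arrays. The Cadm1 probe set with the highest mean read 775.9 and 604.5 in Tslc1-/-, against 3449.5 and 4027.9 in Tslc1+/+, or -2.36 on the log2 scale (limma, adjusted p = 1.83e-04), and a second read 443.5 and 444.9 in Tslc1-/-, against 3960 and 3925.2 in Tslc1+/+. A probe set outside the deleted part would check nothing. Of 7975 probe sets tested for a difference between the genotypes, 86 passed a Benjamini-Hochberg adjusted p of 0.05, 67 lower and 19 higher in Tslc1-/-. Among marker genes of the testis, 6 of 13 elongating spermatid genes and 4 of 7 round spermatid genes fell, as did 1 of 7 meiotic genes (Pgk2, -0.78). The marker lists were chosen with earlier results of these data known, so the counts are not an independent survey of the cell types. None of 14 Sertoli, 8 Leydig and 8 macrophage or leukocyte genes passed, and the smallest p in these lists belonged to Rhox5 (0.51, limma adjusted p = 0.522), Cyp17a1 (-0.58, adjusted p = 0.127) and Laptm5 (0.90, adjusted p = 0.395). Signs differed within each list: 4 of the Sertoli, 4 of the Leydig and 3 of the macrophage or leukocyte genes had negative changes. Of the Leydig genes Hsd3b6 was at 1.07 (limma adjusted p = 0.173), and of the Sertoli genes Ctsl was at -0.24.

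Most proteasome genes had small measured changes between the genotypes, and 1 gene passed the test. Psma6, a subunit of the alpha ring, fell 1.60-fold. Of the 40 genes with a mean signal of at least 200, which were tested, 1 fell, none rose and 39 did not pass (limma, adjusted over all 7975 probe sets). That is 2.5% of the genes called lower, against 0.840% of all tested probe sets called lower, 0.238% called higher and 1.08% called in either direction. At an unadjusted p under 0.05 were 4 of the 40 proteasome genes and 799 of the 7975 probe sets, about the same share. The median log2 change over the 40 genes was -0.06, with an interquartile range from -0.15 to 0.06. Over all tested probe sets the median was 0.02, with an interquartile range from -0.21 to 0.24. These ranges are not matched for signal. Over all tested probe sets the median size of a change was 0.38 at signals of 200 to 500 and 0.15 at 2000 to 5000. A negative change was measured for 26 genes (65.0%) and a positive one for 14, while 47.5% of all tested probe sets had a negative change.

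**Figure D1:**
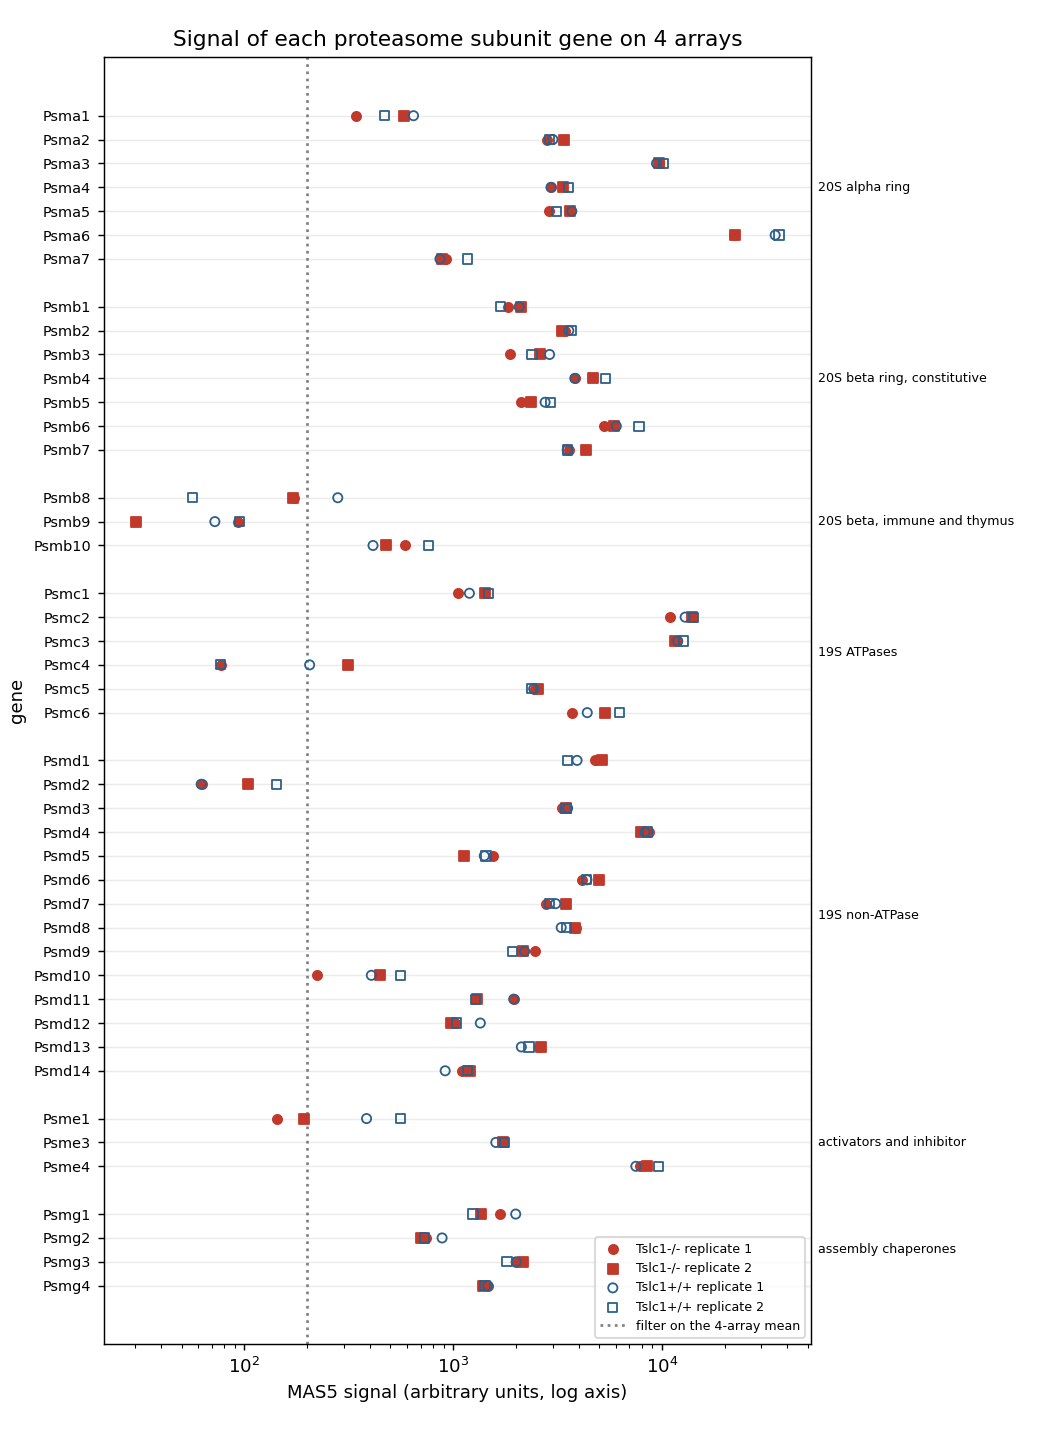
MAS5 signal (log axis) of each of the 44 proteasome genes on each array, by subunit class. Filled red symbols are Tslc1-/- arrays, open blue symbols are Tslc1+/+ arrays, circles are replicate 1 and squares replicate 2, and the dotted line is the mean signal of 200 below which a gene was not tested. The genotypes stand clearly apart for Psma6, while for most genes the symbols lie on or beside each other.

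Most proteasome genes were brighter than the typical probe set and were measured more precisely. The tested proteasome genes had a median signal of 2500 against 777.3 for all tested probe sets, and the standard error of a change had a median of 0.16 for them and 0.26 for all. For 37 of the 40 genes the 95% interval of the change lay within -1 and 1, which is less than a 2-fold difference either way, and for 20 it lay within -0.5 and 0.5. The 3 genes with wider intervals, Psma1, Psmd10 and Psme1, were the 3 dimmest of those tested. Both Tslc1-/- arrays lay below both Tslc1+/+ arrays for 7 genes (17.5%) and above them for 5 (12.5%). Over all tested probe sets those shares were 18.5% and 21.5%, or 40.0% in either direction against 30% of the proteasome genes.

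**Figure D2:**
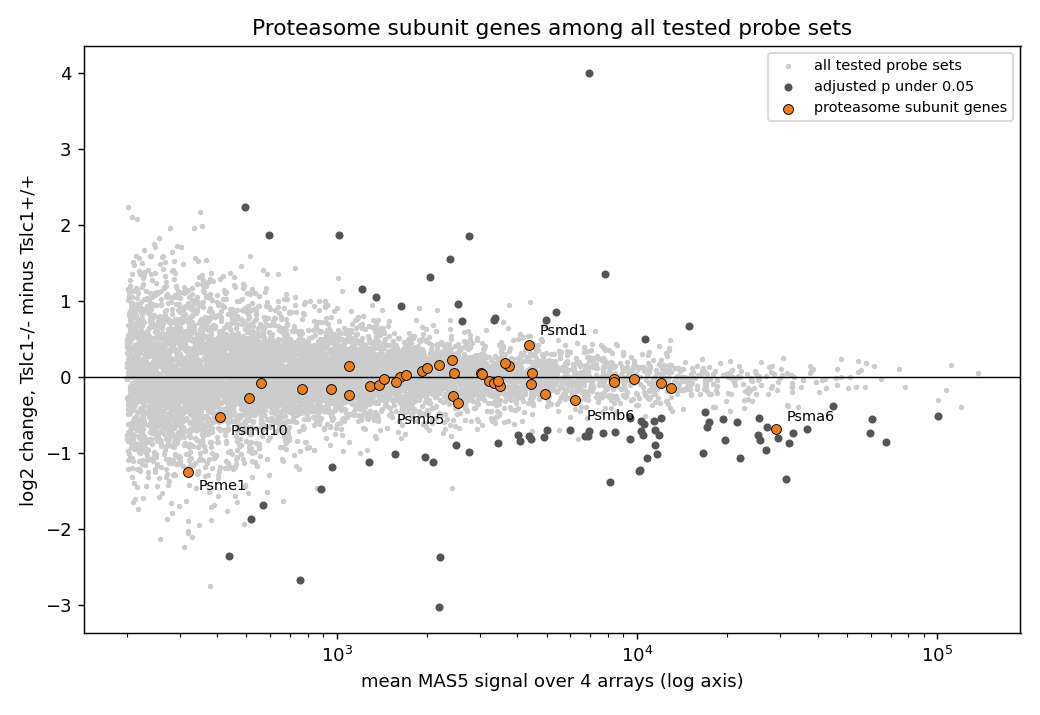
Log2 change (vertical axis) against mean MAS5 signal over 4 arrays (log axis) for all 7975 tested probe sets in grey, those with an adjusted p under 0.05 in dark grey, and the 40 tested proteasome genes in orange. Psma6 lies among bright called probe sets at -0.68, and most other proteasome genes lie near 0.

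Psma6 read 22159 and 22494.1 in Tslc1-/- testis, against 34928.9 and 36456.2 in Tslc1+/+ testis. The arrays of the genotypes were far apart compared with the difference between arrays of one genotype: the higher Tslc1-/- signal was exceeded 1.55-fold by the lower Tslc1+/+ signal. Mean signal was 22327 ± 237 in Tslc1-/- testis and 35693 ± 1080 in Tslc1+/+ testis (SD over 2 arrays), which is -0.68 on the log2 scale (SE 0.08, 95% interval -0.84 to -0.51, limma adjusted p = 0.00143). Psma6 forms one position of the outer ring that gates the entry of the core. It was called with each array left out in turn (adjusted p = 0.0215 to 0.0397) and lost the call where the spread was not allowed to follow signal intensity (adjusted p = 0.505), a setting in which no probe set of the whole array was called, with 638 at an unadjusted p under 0.05.

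Calls of a fall were more frequent among bright probe sets. Of the 324 with a mean signal of at least 10000, 11.4% were called lower, against 1.37% between 2000 and 10000 and 0.147% under 2000. Bright probe sets are measured more precisely, and at equal size a more precise change is called more readily, in either direction. The part of precision in the share of falls was not tested. The median SE of a change was 0.52 for signals of 200 to 500 and 0.09 at 10000 or more. Psma6 was one of 3 proteasome genes in that bright range. The other two were Psmc2 and Psmc3, whose changes were -0.14 and -0.07. Summed over genes, the listed spermatid markers were lower in Tslc1-/-. The summed signal of the 13 elongating spermatid genes was 454070 and 426861 in Tslc1-/-, against 616512 and 623758 in Tslc1+/+, none was at 0, and 6 fell (Oaz3, Akap4, Odf1, Prm3, Tnp1 and Gapdhs, by 1.34 to 0.51 on the log2 scale). The other 7 did not pass, and of these Prm2 (0.18), Haspin (0.13) and Actl7b (0.05) had positive changes. The Prm2 probe set was dim and imprecise, with a mean signal of 276.65 and an SE of 0.59. The sum weighs the brightest genes most. The summed signal of 7 round spermatid genes was 124291 and 127160 in Tslc1-/-, against 186565 and 193792 in Tslc1+/+, none was at 0, and Gsg1, Tcp11, Tssk2 and Theg fell, while 3 did not pass. These 3 were Tssk1 (-0.27), Acrv1 (-0.14) and Crem (-0.08). The part of these cell types in the Psma6 result was not tested. On chromosome 12 the immediate neighbours of Psma6 had no probe set. Nfkbia, an inhibitor of NF-kappa-B 4 places downstream in the annotation, had changes of 0.15 and 0.07 on its probe sets (limma adjusted p = 0.861 and 0.968). Aldoart2, an aldolase retrogene 6 places downstream and named after its values were seen, read 4795.3 and 4310.1 in Tslc1-/-, against 7356.7 and 7413.1 in Tslc1+/+, a change of -0.69 (limma adjusted p = 0.0147). Srp54b, 6 places on the other side, was at 0.54 (adjusted p = 0.673).

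The RefSeq table lists 2 transcription starts for Psma6, and both windows are shown because they differ in base composition and the array does not say which start gave the signal. Each window runs from 250 bases before a start to 50 after it (RefSeq, build GRCm38.p6). The first, chr12:55383972-55384271 on the + strand, has 46.7% G and C and 3 CpG dinucleotides, with CCAAT boxes (CCAAT on either strand) in capitals. The second, chr12:55398575-55398874 on the + strand, has 65.0% G and C and 22 CpG dinucleotides, with matches to the ETS-type motif CCGGAAG on either strand in capitals.
Psma6, upstream start: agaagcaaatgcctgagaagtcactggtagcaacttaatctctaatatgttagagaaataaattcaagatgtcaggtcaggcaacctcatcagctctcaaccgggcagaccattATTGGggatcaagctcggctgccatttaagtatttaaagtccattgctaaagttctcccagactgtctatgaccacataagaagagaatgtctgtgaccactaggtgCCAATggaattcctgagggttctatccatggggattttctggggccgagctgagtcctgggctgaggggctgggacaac
Psma6, downstream start: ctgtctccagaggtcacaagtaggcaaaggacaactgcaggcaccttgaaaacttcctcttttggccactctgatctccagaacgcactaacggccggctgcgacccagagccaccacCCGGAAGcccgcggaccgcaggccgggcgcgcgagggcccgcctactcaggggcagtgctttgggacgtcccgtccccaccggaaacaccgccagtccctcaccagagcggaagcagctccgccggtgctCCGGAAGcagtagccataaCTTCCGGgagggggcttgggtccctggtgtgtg
The upstream window held 2 CCAAT boxes and no CCGGAAG, and the downstream one 3 copies of CCGGAAG and no CCAAT.

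Windows were listed for 37 of the 44 genes, 39 windows in all. Most were rich in CpG: 37 of 39 (94.9%) held at least 10 CpG dinucleotides, against 43.5% of the 32851 windows of all genes. The upstream Psma6 window and the Psmb10 window were the exceptions, with 3 CpG each. CCGGAAG was present in 15 of the 39 windows (38.5%), against 8.86% of all windows, and, among windows with at least 10 CpG, in 40.5% against 17.3%. TGACG, a short form of the cAMP response element, was present in 46.2% against 20.8%, or 48.6% against 33.1% in CpG-rich windows. The full element TGACGTCA was in none of the 39 windows, against 1.79% of all and 3.37% of the CpG-rich ones. TGACNNNGC, the core of the antioxidant response element through which Nfe2l1 is known to act on proteasome genes, was in 6 of 39 (15.4%), against 12.4% of all, or 16.2% against 14.6% in CpG-rich windows. CCAAT was in 33.3% against 37.4%, or 32.4% against 35.7% in CpG-rich windows. TATAAA was in 4 windows, 10.3% against 13.6% of all, and the order turned in CpG-rich windows, with 10.8% against 5.63%. All motifs were searched on both strands. TGACGTCA contains TGACG, which can also overlap a TGACNNNGC match. A match describes the letters and is not a binding site.

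The other alpha ring genes had small changes. Psma1, Psma2, Psma3, Psma4, Psma5 and Psma7 complete the ring together with Psma6, and none of them passed (limma, adjusted p = 0.846 to 0.969). Psma3 read 9688.4 and 9665.8 in Tslc1-/-, against 9435.5 and 10204.9 in Tslc1+/+, or -0.02 on the log2 scale with a 95% interval from -0.23 to 0.19. Its Tslc1-/- arrays lay between the Tslc1+/+ arrays. Psma2 was at 0.06, Psma4 at -0.04, Psma5 at -0.07 and Psma7 at -0.15, each with overlapping genotypes. Psma1 was dim and imprecise, with 344.1 and 581.4 in Tslc1-/- against 646.2 and 469.3 in Tslc1+/+, a change of -0.27 whose interval ran from -1.05 to 0.51. Psma8, the alpha subunit known from germ cell proteasomes, had no probe set annotated to it alone and was not analysed here.

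**Figure D3:**
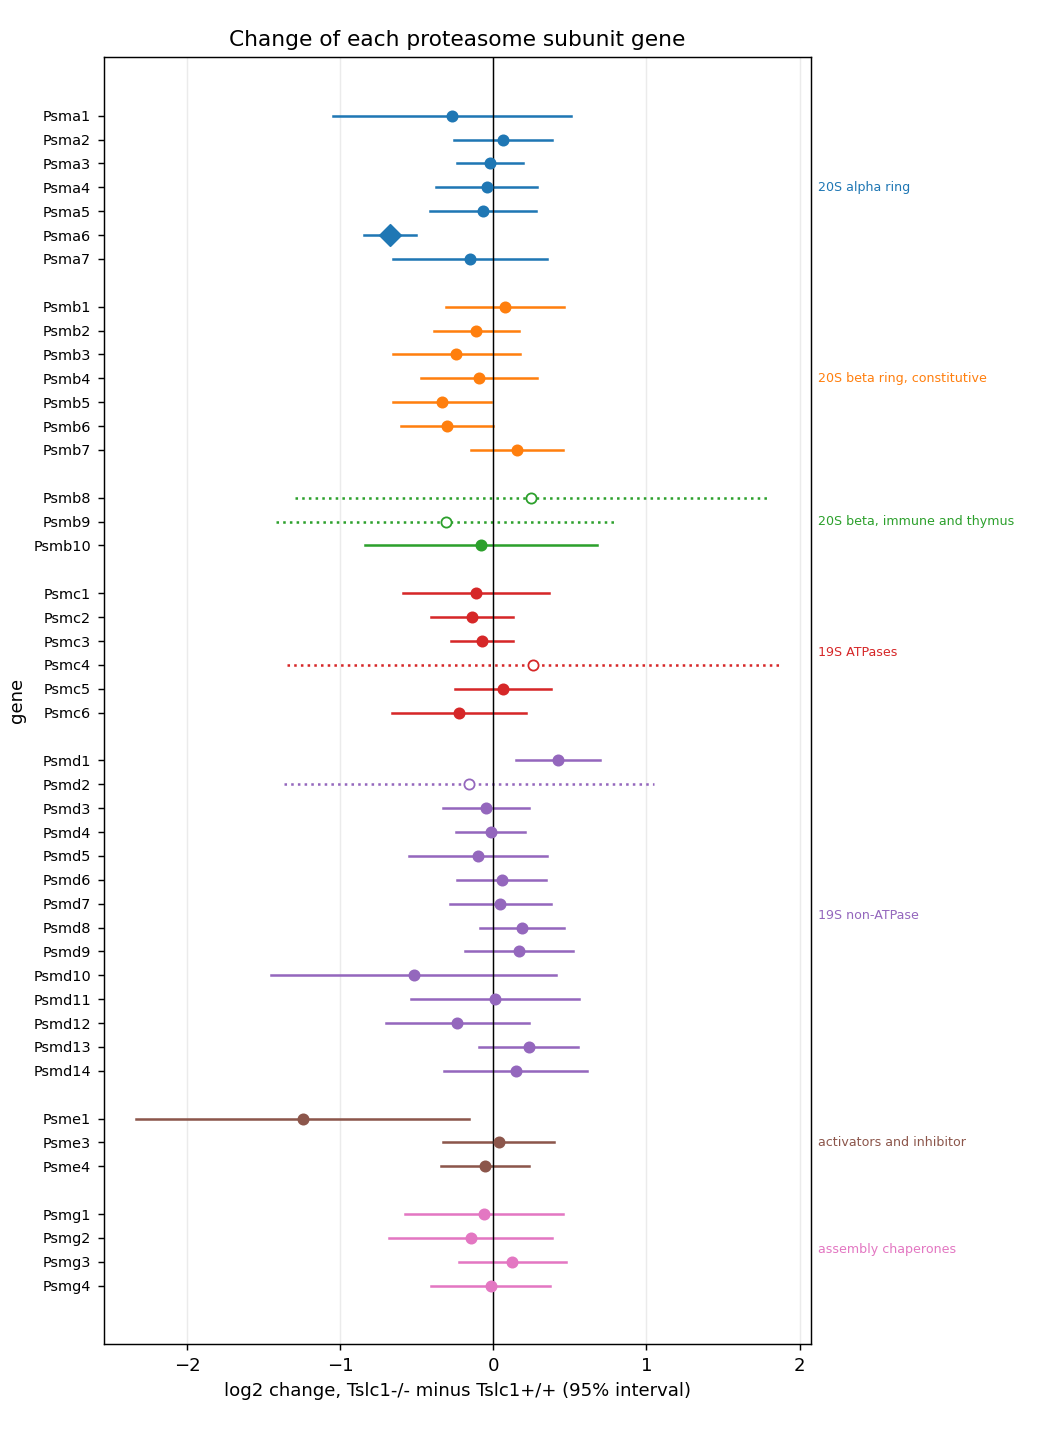
Log2 change of each proteasome gene, Tslc1-/- minus Tslc1+/+, with its 95% interval, by subunit class. The diamond marks Psma6, the gene with an adjusted p under 0.05, and open symbols with dotted lines are the 4 genes below the signal filter. The intervals of Psma6, Psmb5, Psmd1 and Psme1 do not reach 0, and those of the dim genes are the widest.

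The constitutive beta ring was measured in full. Of its 7 genes, 5 had a negative and 2 a positive change, with a median of -0.11, and none passed. Psmb5 carries the chymotrypsin-like site. It read 2122 and 2371 in Tslc1-/-, against 2759.9 and 2922.2 in Tslc1+/+, or -0.33 on the log2 scale (SE 0.14, limma adjusted p = 0.475). The arrays of the genotypes did not overlap. Psmb6, which carries the caspase-like site, read 5258.4 and 5870.3 in Tslc1-/-, against 6053.6 and 7770.9 in Tslc1+/+, or -0.30 on the log2 scale (SE 0.14, limma adjusted p = 0.499). Here too both Tslc1-/- arrays were the lower ones, the closest arrays of the 2 genotypes being 5870.3 and 6053.6. Psmb7, with the trypsin-like site, read 3582.3 and 4336 in Tslc1-/-, against 3522.8 and 3542 in Tslc1+/+, or 0.16 on the log2 scale (SE 0.14, limma adjusted p = 0.769). One Tslc1-/- array was thus level with the Tslc1+/+ arrays and the other was higher. The 3 catalytic genes did not share a direction, and none of their differences passed.

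The windows of Psmb5 and Psmb6 are shown because both hold a match to the antioxidant response element core and both genes had a negative change. The Psmb5 window is chr14:54617946-54618245 on the - strand and the Psmb6 window is chr11:70525107-70525406 on the + strand (RefSeq, GRCm38.p6), with the TGACNNNGC match in capitals.
Psmb5: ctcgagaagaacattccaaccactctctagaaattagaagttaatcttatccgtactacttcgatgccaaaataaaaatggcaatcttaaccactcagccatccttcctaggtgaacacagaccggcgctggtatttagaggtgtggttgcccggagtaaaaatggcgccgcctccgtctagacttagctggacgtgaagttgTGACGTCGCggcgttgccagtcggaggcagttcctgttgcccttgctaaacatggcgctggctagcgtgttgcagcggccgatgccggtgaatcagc
Psmb6: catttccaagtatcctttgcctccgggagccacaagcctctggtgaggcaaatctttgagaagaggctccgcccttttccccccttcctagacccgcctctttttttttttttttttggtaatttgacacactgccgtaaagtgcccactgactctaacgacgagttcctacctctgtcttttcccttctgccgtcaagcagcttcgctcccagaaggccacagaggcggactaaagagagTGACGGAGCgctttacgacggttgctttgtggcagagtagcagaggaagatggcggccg
Each window held 1 match, upstream of the start. The other 4 genes with a match were Psmc6 (-0.22), Psmd12 (-0.23), Psmd9 (0.17) and Psme4 (-0.05). None of the genes with this match was called, and 65.0% of the tested proteasome genes had a negative change. With 1 array left out, Psmc6 (-0.49 to 0.035) and Psme4 (-0.24 to 0.13) turned sign, and the others with a match did not. The dimmer Psmb5 probe set had a change of 0.16. The part of the match in these changes was not tested. The signal of Nfe2l1 itself was 3280.1 and 3240.3 in Tslc1-/-, against 3545.1 and 3769.2 in Tslc1+/+, or -0.16 on the log2 scale (limma adjusted p = 0.734).

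The structural beta subunits had changes between -0.24 and 0.08. Psmb2 read 3424.5 and 3313.6 in Tslc1-/-, against 3584.5 and 3697.1 in Tslc1+/+, or -0.11 on the log2 scale with a 95% interval from -0.39 to 0.17. Its genotypes were separate but close. Psmb3 was at -0.24, Psmb4 at -0.09 and Psmb1 at 0.08, with overlapping arrays.

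The immune subunits, which replace the catalytic ones in immune cells and after interferon, were dim. Psmb8, the counterpart of Psmb5, read 173.1 and 171.9 in Tslc1-/-, against 280.2 and 56.2 in Tslc1+/+. Psmb9, the counterpart of Psmb6, read 93.5 and 30.3 in Tslc1-/-, against 72.2 and 94.7 in Tslc1+/+. Both had mean signals under 200 and were not tested, and the Tslc1+/+ arrays of Psmb8 differed from each other more than from Tslc1-/-. Psmb10, the counterpart of Psmb7, read 589.6 and 478.8 in Tslc1-/-, against 413.4 and 763.9 in Tslc1+/+, or -0.08 on the log2 scale with a 95% interval from -0.83 to 0.68 (limma, adjusted p = 0.968). As a fold the interval of Psmb10 ran from 0.56 to 1.60, so a fall or a rise of that size is compatible with these arrays. Psmb11, the thymus form, had no probe set annotated to it alone. The summed signal of the 8 tested of 13 macrophage and leukocyte markers was 4259 and 4101 in Tslc1-/-, against 3779 and 3833 in Tslc1+/+, with none of the 8 called and none at 0. Its members differed in sign: 5 changes were positive, and Cd52 (-1.01), Csf1r (-0.92) and H2-Ab1 (-0.15) were negative. Their part in these readings was not tested. Of 9 tested genes of the class I antigen presentation pathway, none passed, with a median of 0.01. H2-K1, a class I heavy chain, had the smallest p of them, with 4624.6 and 4156.6 in Tslc1-/-, against 3552.3 and 3819.9 in Tslc1+/+, or 0.25 on the log2 scale (limma adjusted p = 0.563). Its probe set has a name suffix for probes that may also bind other transcripts.

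**Figure D4:**
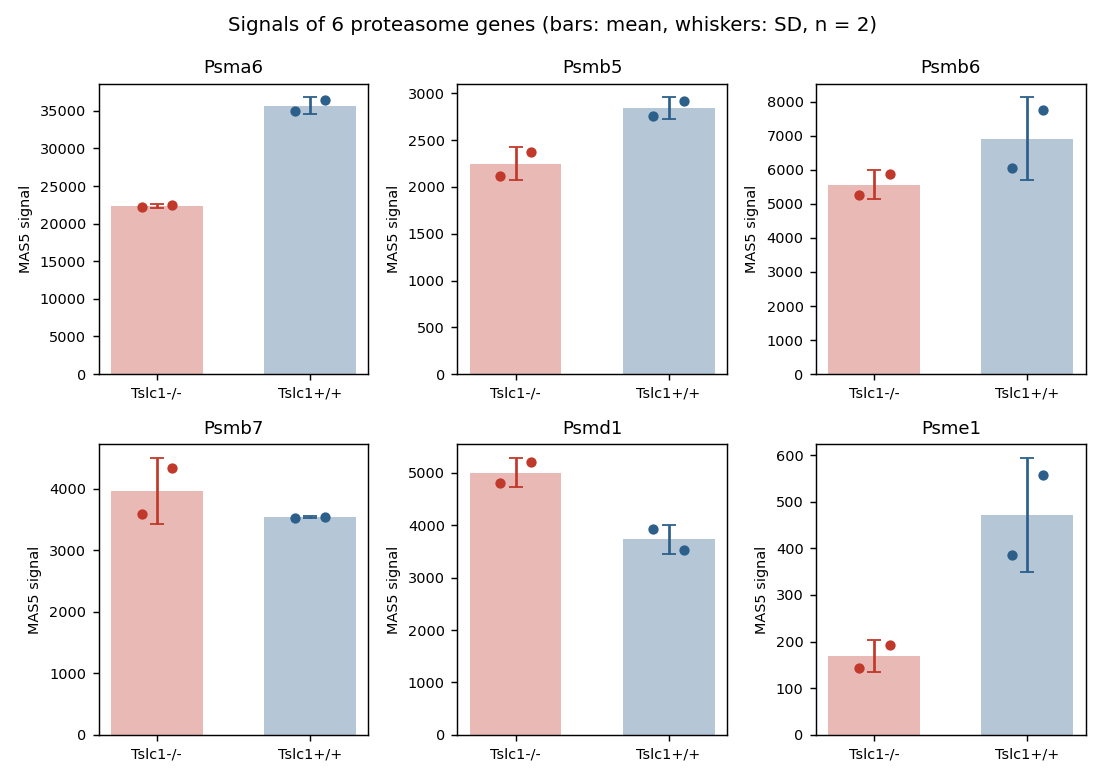
MAS5 signals of Psma6, the 3 constitutive catalytic subunits Psmb5, Psmb6 and Psmb7, Psmd1 and Psme1, with Tslc1-/- on the left (red) and Tslc1+/+ on the right (blue). Points are arrays, bars are means and whiskers the SD over 2 arrays, and each vertical axis starts at 0. Arrays of one genotype are closest together, relative to the gap between genotypes, for Psma6.

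The ATPases of the cap, which unfold the substrate, showed no called change. Of 5 tested genes 4 had a negative and 1 a positive change, with a median of -0.11. Psmc6 had the smallest p of the class (-0.22, SE 0.20, limma adjusted p = 0.769), with 3727.6 and 5370.2 in Tslc1-/-, against 4393.4 and 6244.6 in Tslc1+/+, and the genotypes overlapped. Psmc3 read 11767 and 11593 in Tslc1-/-, against 11915.9 and 12653.4 in Tslc1+/+, or -0.07 on the log2 scale with a 95% interval from -0.27 to 0.13. Its arrays did not overlap, but the Tslc1+/+ arrays lay further from each other than the nearest arrays of the 2 genotypes. Psmc5 was at 0.06, Psmc1 at -0.11 and Psmc2 at -0.14. Psmc4 read 77.4 and 315.3 in Tslc1-/-, against 205.4 and 77.1 in Tslc1+/+, and was not tested, at a mean signal of 168.8.

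The Psmd genes, drawn as 19S non-ATPase, were the largest class and hold both subunits of the cap and 3 chaperones of its assembly (Psmd5, Psmd9 and Psmd10). Of the 14 genes 13 were tested, 5 negative and 8 positive, with a median of 0.05 and none called. Psmd1, a large scaffold of the cap's base, had the largest positive change of all proteasome genes. It read 4810.1 and 5197.5 in Tslc1-/-, against 3926.2 and 3528.8 in Tslc1+/+, or 0.42 on the log2 scale (SE 0.12, 95% interval 0.15 to 0.70). The lower Tslc1-/- array was above the higher Tslc1+/+ array. With an unadjusted p of 0.00659 it did not pass (limma, adjusted p = 0.201, and 0.0823 to 0.634 under the alternatives). Its partner scaffold Psmd2 was too dim to test, with 62.9 and 103.6 in Tslc1-/-, against 62.1 and 142.7 in Tslc1+/+.

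Among the lid subunits, Psmd13 read 2577.7 and 2638.1 in Tslc1-/-, against 2123.1 and 2312.1 in Tslc1+/+, or 0.23 on the log2 scale (SE 0.14, limma adjusted p = 0.664). Psmd8 read 3900.3 and 3836.7 in Tslc1-/-, against 3296.2 and 3485.5 in Tslc1+/+, or 0.19 on the log2 scale (SE 0.12, limma adjusted p = 0.681). In both genes the Tslc1-/- arrays were the higher ones and the difference did not pass. Psmd12 had the opposite sign, at -0.23, with 1021.6 and 980.6 in Tslc1-/-, against 1350.6 and 1041 in Tslc1+/+. Psmd14, the deubiquitinase of the lid, was at 0.15 and its partner Psmd7 at 0.05. Psmd3 was at -0.05, Psmd6 at 0.05 and Psmd11 at 0.01. Psmd4, the ubiquitin receptor of the cap, read 8664.3 and 7992.3 in Tslc1-/-, against 8308.3 and 8537.1 in Tslc1+/+, or -0.02 on the log2 scale with a 95% interval from -0.24 to 0.21. Its Tslc1+/+ arrays lay between the Tslc1-/- ones.

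Psmd5, Psmd9 and Psmd10 are not parts of the finished cap but chaperones that hold its ATPases during assembly. Psmd10, also known as gankyrin, read 223.6 and 446.5 in Tslc1-/-, against 405.8 and 561.4 in Tslc1+/+, or -0.52 on the log2 scale (SE 0.42, limma adjusted p = 0.747). Its size is among the 3 largest negative changes, but the genotypes overlapped. Psmd5 was at -0.10 and Psmd9 at 0.17. The chaperones of the core, Psmg1 and Psmg2, which help build the alpha ring, and Psmg3 and Psmg4, were at -0.06, -0.15, 0.13 and -0.02, and none passed. Psmg3 had the smallest p of these, with 2005.2 and 2167 in Tslc1-/-, against 2005.6 and 1813.1 in Tslc1+/+ (limma, adjusted p = 0.839).

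Activators open the core in place of the cap. Psme1, a subunit of the interferon-inducible activator, had the largest negative change of all proteasome genes. It read 143.9 and 192.8 in Tslc1-/-, against 384.9 and 557.5 in Tslc1+/+, or -1.24 on the log2 scale (SE 0.49, 95% interval -2.33 to -0.16). Both Tslc1-/- signals lay below 200 and both Tslc1+/+ signals above it, so the gene passed the filter through its Tslc1+/+ arrays. With an unadjusted p of 0.0289 it did not pass (limma, adjusted p = 0.407, and 0.339 to 0.740 under the alternatives). The next gene below it in signal, Psmb8, had a mean of 170.4 and fell outside the filter, against 319.8 for Psme1. Probe sets for the partner subunit Psme2 were annotated to Psme2 and Psme2b together. The brighter of them read 741.1 and 1012.4 in Tslc1-/-, against 846.5 and 648.5 in Tslc1+/+, so its genotypes overlapped. Psme4, the activator known to be needed for normal spermatogenesis in mice, read 7901.3 and 8519.3 in Tslc1-/-, against 7510.5 and 9672.2 in Tslc1+/+, or -0.05 on the log2 scale with a 95% interval from -0.34 to 0.23. Psme3, the nuclear activator, read 1717.3 and 1726.6 in Tslc1-/-, against 1602.1 and 1761.1 in Tslc1+/+, a log2 change of 0.03. For both genes the Tslc1-/- arrays lay between the Tslc1+/+ arrays. Psmf1, the inhibitor in this class, had no probe set annotated to it alone and was not analysed here.

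For 8 of the 44 genes more than 1 probe set was available, and their readings did not always share a sign. The second Psmb5 probe set read 519 and 734 in Tslc1-/-, against 485.2 and 615 in Tslc1+/+, a log2 change of 0.16 where the brighter one had -0.33. The brighter one has a name suffix for probes that may also bind other transcripts. The representing probe sets of 8 of the 40 tested genes have a name suffix, though not every suffix has this meaning. The brightest Psmb1 probe set read 1842.4 and 2114.8 in Tslc1-/-, against 2073.2 and 1682.7 in Tslc1+/+ (0.08), and the next read 1974.1 and 1314.6 in Tslc1-/-, against 1517.3 and 2003.4 in Tslc1+/+ (-0.11). In both the genotypes overlapped. The second Psmc3 probe set read 5658.6 and 6938.2 in Tslc1-/-, against 5544.1 and 6616.4 in Tslc1+/+, and both it and the third were at 0.05 where the brightest was at -0.07. The second Psmg3 probe set read 930.4 and 384.1 in Tslc1-/-, against 679.1 and 801.2 in Tslc1+/+, a change of -0.27 where the brighter one had 0.13. None of these differences passed. The brightest Psmb4 probe set read 3840.5 and 4701.3 in Tslc1-/-, against 3829.5 and 5370.3 in Tslc1+/+ (-0.09). Of the Psmb4 probe sets below the filter, one read 212.5 and 134.8 in Tslc1-/-, against 9.1 and 13.1 in Tslc1+/+, a change of 1.85 that did not pass in a fit of all probe sets (limma adjusted p = 0.221). The other read 81.9 and 136.9 in Tslc1-/-, against 93.7 and 311.7 in Tslc1+/+, with overlapping genotypes. A second, dimmer Psme1 probe set read 10.1 and 146.1 in Tslc1-/-, against 23.5 and 25.5 in Tslc1+/+, with a change of 0.54, opposite in sign to the first. The 3 Psmd11 probe sets had changes of 0.01, 0.31 and 0.77, and none passed. Psma6 was read by 1 probe set, with no such suffix.

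**Figure D5:**
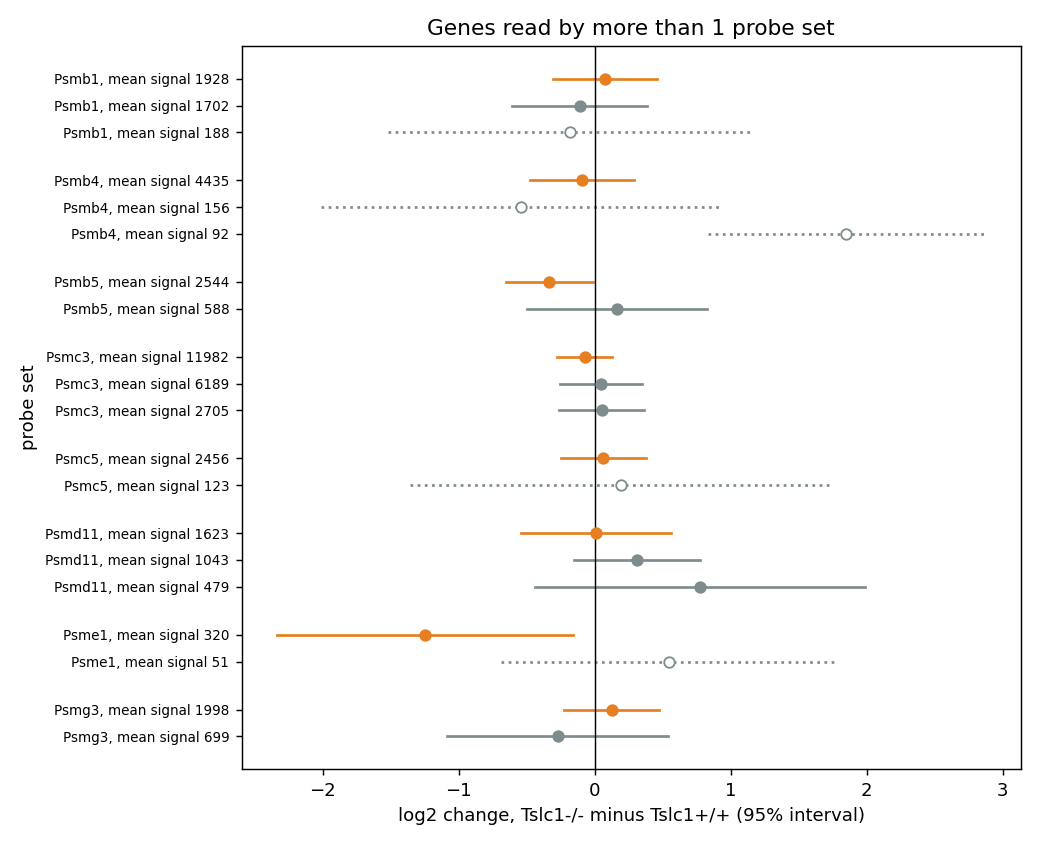
Log2 change with 95% interval for each probe set of the 8 genes read by more than 1, labelled by its mean signal. Orange marks the probe set that represents the gene, and open symbols with dotted lines mark probe sets below the signal filter. The tested probe sets of a gene have overlapping intervals. The interval of the dim Psmb4 probe set at 1.85 lies apart from that of the brightest but overlaps that of the other dim one.

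Genes that work with the proteasome but are not part of the symbol families were described from a list of 30, of which 17 had a probe set of their own and were tested. None passed, and their median change was 0.02, with 8 negative. Ubqln1, a shuttle that carries ubiquitinated proteins to the proteasome, had the smallest p. It read 3618.6 and 4336.3 in Tslc1-/-, against 2755.9 and 3389.3 in Tslc1+/+, or 0.37 on the log2 scale (limma adjusted p = 0.440). Sem1, a small subunit of the lid, read 5804.2 and 6328.8 in Tslc1-/-, against 7371.5 and 7063.1 in Tslc1+/+, or -0.25 on the log2 scale (limma adjusted p = 0.470). Uchl5, a deubiquitinase of the cap, was at -0.35, the core maturation factor Pomp at 0.08, the unfolding ATPase Vcp at 0.06 and Akirin2, a nuclear import factor of proteasomes, at 0.04.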

How the data were processed

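Testis RNA was measured on 4 Affymetrix U74Av2 arrays, grouped by the genotype in the titles. The authors deposited 1 linear intensity per probe set, made with MAS5 and scaled to a target of 1000 on each array, per the labels. The mean after trimming 2% at each end was 1001 on every array. Such scaling hides a change in total RNA. The number of arrays limits the precision, and an exact permutation test of 2 against 2 cannot give p under 0.333.

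Genes were named from the platform annotation; all 44 members matched RefSeq by Entrez identifier. Of 12488 probe sets, 66 controls were left out. Log2(signal + 50) was fitted for probe sets with a mean signal of at least 200 with limma 3.58.1 in R 4.3.3 (lmFit, eBayes with an intensity trend), two-sided, with Benjamini-Hochberg adjustment over the 7975 tested and a threshold of 0.05. Genes below the filter have changes from a fit of all 12422. The fit was tested on simulated data. The members and lists were chosen with earlier results of these data known. Every member is named; array values are given for the called gene, the catalytic subunits and their immune counterparts, the smallest p of each class, the 3 largest rises and falls, and genes whose probe sets differ in sign. Psma1, Psma3, Psmb2, Psmc4, Psmd2, Psmd4, Psmd12, Psme2, Psme3, Psme4, Nfe2l1, Sem1 and the other partners named beside Ubqln1, the uncalled markers named for their sign or size, the neighbours of Psma6, the motifs and the windows shown were chosen after values were seen. Alternatives were pseudocounts of 16 and 200, no filter or one at 500, quantile or median scaling, no trend, a replicate block, averaged probe sets, no suffixed probe sets, and each array left out.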

Additional observations from a re-analysis of the deposited data

How the results depend on the processing

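The call of Psma6 held under 13 of 14 alternatives, with changes from -0.71 to -0.49. Without the intensity trend, 0 proteasome genes passed, and Cadm1, at -2.36, did not pass either (limma, adjusted p = 0.275); 0 of all probe sets were called there, with 638 at an unadjusted p under 0.05. None of the listed partner and antigen presentation genes passed under any alternative. With replicate number as a block, 1 proteasome gene was called, Psma6 at -0.68, and 239 probe sets in all against 86; the labels do not say what the numbers share, and deviations of same-numbered arrays correlated across probe sets with r = -0.0012. Leaving out any 1 array gave 37 to 43 calls in all, and 1 proteasome gene each time. Psme1 and Psmd10 have no value with a filter at 500, and only 34 of the 40 genes have one without suffixed probe sets. The block changed no other proteasome call. With 1 array left out, the median change ran from -0.079 to 0.017 over all proteasome genes, -0.14 to 0.055 for the alpha ring, -0.24 to -0.0062 for the constitutive beta ring, 0.0023 to 0.091 for the Psmd genes and -0.24 to 0.10 for the activators. Of the class medians, those of the beta ring and the Psmd genes kept their sign. Signs of uncalled changes also turned for Psma3 (0.051), Psmd4 (0.037) and Psmd11 (-0.016) with quantile normalization, for Psmb1 (-0.016), Psmc3 (0.0094) and Psmg3 (-0.073) with probe sets averaged, and for Psmb5 (0.16) and Psmg3 (-0.27) without suffixed probe sets. With 1 array left out, signs turned for 22 genes: Psma1 (-0.61 to 0.071), Psma2 (-0.073 to 0.20), Psma3 (-0.076 to 0.036), Psma4 (-0.18 to 0.094), Psma5 (-0.24 to 0.097), Psma7 (-0.36 to 0.058), Psmb1 (-0.069 to 0.22), Psmb4 (-0.33 to 0.15), Psmb10 (-0.48 to 0.33), Psmc1 (-0.32 to 0.094), Psmc2 (-0.31 to 0.039), Psmc6 (-0.49 to 0.035), Psmd4 (-0.075 to 0.041), Psmd5 (-0.32 to 0.12), Psmd6 (-0.080 to 0.19), Psmd7 (-0.11 to 0.20), Psmd11 (-0.28 to 0.30), Psmd14 (-0.026 to 0.32), Psme3 (-0.032 to 0.10), Psme4 (-0.24 to 0.13), Psmg1 (-0.39 to 0.27) and Psmg4 (-0.055 to 0.021). The causes were not tested. Dim genes are measured poorly: the median SD within a genotype was 0.43 for signals of 200 to 500 and 0.08 above 10000 (log2).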
